A study of Mus musculus with 2 samples.

Results

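Pericytes and the vascular smooth muscle cells related to them, together called mural cells, were studied in single-cell RNA-seq libraries of newborn mouse eye cups. They were chosen by their transcripts, since no table of cell types came with the matrices used here. A barcode was gated as mural when unique molecular identifiers (UMIs, each marking 1 captured transcript) were found for at least 3 of the 6 genes Rgs5, Kcnj8, Abcc9, Notch3, Cspg4 and Pdgfrb. Rgs5, Kcnj8 and Abcc9 together had to reach at least 2 UMIs, and no UMI of the endothelial genes Pecam1 and Cdh5 or of the white blood cell gene Ptprc was allowed. The gate took 292 of 14131 kept barcodes in the control library and 242 of 12027 in the mutant library. Since these 9 genes picked the cells, their levels below are a description and are not evidence for what the cells are.

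The study asked what the transcription factor gene Myrf does in the developing eye. Both groups were pups at postnatal day 0 and carried Myrf fl/fl, that is, both copies of Myrf flanked by recognition sites for the recombinase cre. The control group was Myrf fl/fl with no cre, and the mutant group was Rx>cre Myrf fl/fl, where cre is made in the early eye field from which retina and pigment epithelium arise. Each group was 1 library made from 3 pooled samples of eye cups, with cornea, lens and optic nerve removed and the tissue digested with papain. With 1 library per genotype there is no replicate check, and no test between genotypes was possible. Every difference given here lies between those libraries, and every interval covers counting error only.

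Pericytes sit on the outer face of capillaries, within the basement membrane that they share with the endothelium. Endothelial cells release PDGF-B, which recruits and keeps pericytes through the receptor PDGFRB. Kcnj8 and Abcc9 encode the pore and the regulatory subunit of an ATP-sensitive potassium channel, Notch3 a receptor for endothelial ligands, Cspg4 the proteoglycan NG2, and Rgs5 a brake on G protein signalling. Around arterioles, smooth muscle cells with a contractile apparatus take the place of pericytes. Mural cells of the eye come from neural crest and mesoderm and not from the eye field, so the cre line is not aimed at them.

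The control matrix held 79017429 UMIs in 14305 barcodes and the mutant matrix 76272867 in 12222. The libraries shared 59 barcode sequences, of which 1 was gated in either library and 0 in both. Median depth of kept barcodes was 4231 UMIs (control) and 4990 UMIs (mutant). Gated cells were deeper, at medians of 12005 and 11825 UMIs per cell, and their sums held 3689160 and 2957196 UMIs. Mitochondrial transcripts made up a median of 3.79% and 3.84% of UMIs in gated cells. The pools also differed in their sex-linked transcripts. Cells that held Xist but no Y-linked transcript made up 6.76% of the other kept barcodes of the control and 69.95% of those of the mutant, and sex and genotype cannot be told apart in the whole pools.

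The gene deleted in the mutant was hardly present in gated cells. Myrf had 3 UMIs over the control cells and 5 over the mutant cells, or 0.813 and 1.69 CPM (counts scaled to a common total of each sum). In all other kept barcodes Myrf stood at 11.7 CPM (control) and 1.70 CPM (mutant). At 3 and 5 UMIs no difference in Myrf within gated cells was detectable at this depth.

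Gated cells took a like share of both libraries, while cells of the endothelial and fibroblast gates did not. Gated cells were 2.07% of kept control barcodes (exact 95% binomial interval 1.84 to 2.32) and 2.01% of mutant barcodes (1.77 to 2.28), a log2 ratio of mutant over control of -0.04 (-0.29 to 0.21). Cells with 5 or 6 of the gate genes numbered 100 (0.708%) and 91 (0.757%), and cells with 3 or 4 numbered 192 (1.36%) and 151 (1.26%). Endothelial cells, gated by at least 3 of Pecam1, Cdh5, Cldn5, Kdr, Tie1 and Egfl7 with no UMI of Rgs5, Kcnj8, Abcc9 or Ptprc, numbered 418 (2.96%) in the control and 223 (1.85%) in the mutant. There were thus 0.699 gated cells per endothelial cell in the control (0.600 to 0.813) and 1.09 in the mutant (0.901 to 1.31), a log2 ratio of 0.64 (0.30 to 0.98). Cells of the fibroblast gate (at least 3 of 6 fibroblast markers, named below, and no UMI of Rgs5, Kcnj8, Abcc9, Pecam1, Cdh5 or Ptprc) made up 18.4% of control and 5.91% of mutant barcodes, so that there were 0.112 and 0.340 gated cells per fibroblast-gated cell, a log2 ratio of 1.6 (1.33 to 1.87). A share of kept barcodes moves with every other cell type in the library, and losses during dissociation cannot be told apart from differences in the tissue.

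Within cells of like sex-linked transcripts the share did not stay level. Among control cells that held Xist but no Y-linked UMI, 96 of 1031 were gated, 9.31% (7.61 to 11.2), against 148 of 8392 in the mutant, 1.76% (1.49 to 2.07). Among cells with a Y-linked UMI and no Xist the order was the opposite, with 136 of 7134 in the control, 1.91% (1.602 to 2.25), and 48 of 1625 in the mutant, 2.95% (2.19 to 3.90). Cells with 5 or 6 gate genes showed the same order, at 2.81% and 0.655% of Xist cells and 0.659% and 1.29% of cells with Y-linked UMIs. The ratio to endothelial cells was 1.6 and 1.10 for control and mutant among Xist cells, a log2 ratio of -0.55 whose interval includes 0 (-1.12 to 0.03), and 0.645 and 1.66 among cells with Y-linked UMIs, a log2 ratio of 1.36 (0.63 to 2.10). The like share of kept barcodes was thus that of the mixture of animals and was found in cells of neither kind, while the higher ratio to endothelial cells was found among cells with Y-linked UMIs and not among Xist cells. Sex calls need UMIs of a few genes, and gated cells are deeper than the rest, a difference whose part in these shares was not tested.

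**Figure D1:**
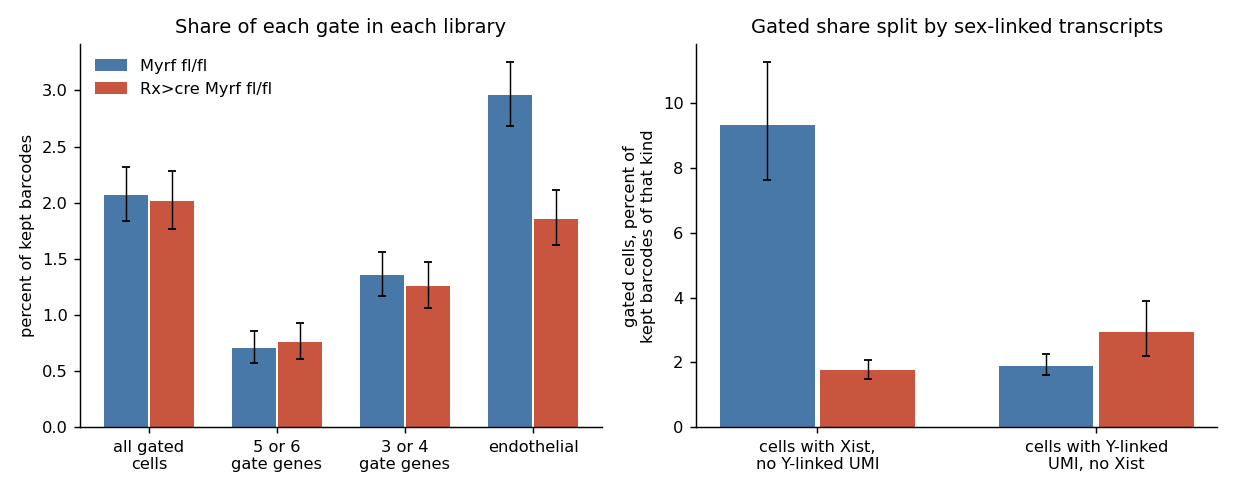
Left, percent of kept barcodes in each gate for Myrf fl/fl (blue) and Rx>cre Myrf fl/fl (red). Right, gated cells as percent of the kept barcodes that held Xist but no Y-linked UMI, or with a Y-linked UMI and no Xist. Bars are 1 library each and whiskers are exact 95% binomial intervals of counting error. The gated share was 2.07% and 2.01% in the whole libraries but 9.31% and 1.76% among Xist cells.

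The gate genes themselves stood at like levels in both libraries. Rgs5 (chromosome 1, 169655501 to 169695813, plus strand of GRCm38) was at 796 CPM in control and 963 CPM in mutant cells, with a log2 ratio of 0.27 (0.20 to 0.35), and 60.3% and 72.3% of gated cells had a UMI of it (32.9% and 42.9% after thinning every cell to 2000 UMIs). Abcc9 was at 158 and 194 CPM, a log2 ratio of 0.29 (0.13 to 0.46). Kcnj8, its neighbour on chromosome 6, was at 289 and 285 CPM, Notch3 at 164 and 159 CPM, Pdgfrb at 298 and 316 CPM, and Cspg4 at 71.8 and 61.5 CPM. Pdgfrb was found in 90.1% and 90.5% of gated cells and Cspg4 in 44.5% and 38.0%. The channel pair Kcnj8 and Abcc9 lies side by side on chromosome 6, at 142564837 to 142571614 and 142587862 to 142702315, both on the minus strand.

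The gate held 2 ranges of cells that differed in much more than the gate genes. In the 100 control and 91 mutant cells with 5 or 6 gate genes, Rgs5 stood at 1988 and 2204 CPM, against 209 and 260 CPM in cells with 3 or 4. Higd1b, a mitochondrial protein gene used as a pericyte marker, was at 382 and 241 CPM with 5 or 6 gate genes and at 5.26 and 1.59 CPM with 3 or 4. Vtn (vitronectin) was at 72.3 and 65.4 CPM against 15.4 and 1.06 CPM, and the transcription factor gene Foxs1 at 174 and 152 CPM against 34.8 and 20.7 CPM. Fibroblast genes showed the opposite order. Col1a1 (type I collagen) was at 2871 and 3296 CPM with 5 or 6 gate genes and at 12370 and 15770 CPM with 3 or 4, and Pdgfra, the PDGF receptor typical of fibroblasts, was at 53.4 and 69.2 CPM against 159 and 160 CPM. At least 3 of the 6 fibroblast markers Dcn, Lum, Dpt, Pi16, Col1a1 and Pdgfra were present in 177 of 192 and 140 of 151 cells with 3 or 4 gate genes, and in 54 of 100 and 44 of 91 cells with 5 or 6.

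The markers were divided on the name mural for the range with 3 or 4 gate genes, which had low levels of these pericyte genes and high levels of fibroblast genes. The 24 pericyte genes outside the gate summed to 2243 and 2318 CPM in this range, against 2195 and 2703 CPM in the fibroblast gate and 5086 and 4522 CPM with 5 or 6 gate genes. Contractile genes went the other way, since the 20 genes of that list summed to 3551 and 3803 CPM in this range against 1052 and 1329 CPM in the fibroblast gate. In the control, Acta2 was at 655 against 89.8 CPM, Gucy1a1 at 144 against 23.3 CPM and Foxs1 at 34.8 against 3.52 CPM. The cells are called gated cells in what follows, and results are given for both ranges where they differ. The edge of the gate ran through a continuum. Cells with exactly 3 gate genes (119 and 97) had Higd1b at 2.65 and 1.67 CPM and Col1a1 at 13946 and 17456 CPM. Barcodes left out for having only 2 gate genes (92 and 69) had Higd1b at 0.925 and 0 CPM and Col1a1 at 15103 and 21625 CPM. Cells with all 6 gate genes (54 and 50) had Higd1b at 660 and 313 CPM and Col1a1 at 1394 and 960 CPM.

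Apart from the fibroblast genes described above, markers of other cell types were low in gated cells. Fibroblast markers summed to 11927 CPM in control and 13790 CPM in mutant gated cells, above the 8362 and 5871 CPM of other kept barcodes, and at least 3 of them were present in 79.1% and 76.0% of gated cells. The 6 endothelial markers summed to 65.3 CPM in control and 57.2 CPM in mutant gated cells, with Pecam1 and Cdh5 at 0 by rule, against 5412 CPM in control endothelial cells. White blood cell markers summed to 3.52 and 3.04 CPM and Schwann cell markers to 4.07 and 1.69 CPM. The 6 retinal progenitor markers summed to 370 and 429 CPM, and at least 3 of them were present in 47 (16.1%) and 35 (14.5%) gated cells. Red blood cell markers stood at 224 and 98.4 CPM and lens markers at 67.2 and 0.676 CPM, so that both were lower in the mutant. Markers of pigment epithelium and melanocytes stood at 38.8 and 134 CPM, with 27.1 and 24.3 CPM where 5 or 6 gate genes were present, and photoreceptor markers at 135 and 135 CPM. At least 3 of the 5 smooth muscle markers Acta2, Tagln, Myh11, Cnn1 and Lmod1 were present in 39 (13.4%) and 33 (13.6%) gated cells. Whether the foreign transcripts were free RNA in the droplets or second cells was not tested.

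Pericyte genes that the gate did not use were higher in gated cells than in all other kept barcodes, and less so than in the fibroblast gate. The 24 genes summed to 3181 CPM (control) and 3115 CPM (mutant) in gated cells. Their sums were 1434 and 1526 CPM in other kept barcodes and 2195 and 2703 CPM in the fibroblast gate. Of 24 such genes, 21 had at least 50 UMIs over both gated sums and were compared. Of these, 11 were at least 4-fold above all other kept barcodes in both libraries (on the CPM + 1 scale), while 2.03% of all 9650 genes compared passed that limit. Vtn, Higd1b, Cd248, Art3, P2ry14, Colec12, Nrip2, Pla1a, Gja4 and Itga1 were among the 11. At least 2-fold higher levels with 5 or 6 than with 3 or 4 gate genes were found for 15 of the 21 in both libraries, against 3.27% of all genes compared. The same cells and depth entered the gate, so these counts describe the cells chosen.

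Outside the gate genes, the 20 genes with the highest fold of gated over other kept cells were led by Higd1b, at 89.9-fold in the control and 82.5-fold in the mutant (130 and 88.3 CPM in gated cells). Foxs1 followed at 27.6- and 35.4-fold, the collagen receptor subunit gene Itga1 at 14.4- and 22.1-fold (its reads could be shared with the overlapping gene Pelo), and Acta2 at 14.3- and 15.9-fold. Gucy1a1, a subunit of the nitric oxide receptor guanylate cyclase, was at 13.4- and 23.7-fold. Others, from 9.86- to 13.2-fold in the control, were Mrvi1, Tagln, Alpl, Aoc3, Actg2, Gja4, Rem1, Rasgrp2, Myl9, Il34, Alkal2, Ednra, Aldh1a2 and Col10a1. Of these, Gja4 was about as high in endothelial cells (100 and 56.9 CPM). Rasgrp2 was at 87.6 and 73.0 CPM there, so that gated cells were only 1.56- and 1.81-fold higher. Aldh1a2, which makes retinoic acid, was at 223 and 227 CPM and was as high with 3 or 4 gate genes (248 and 219 CPM) as with 5 or 6 (173 and 240 CPM).

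**Figure D2:**
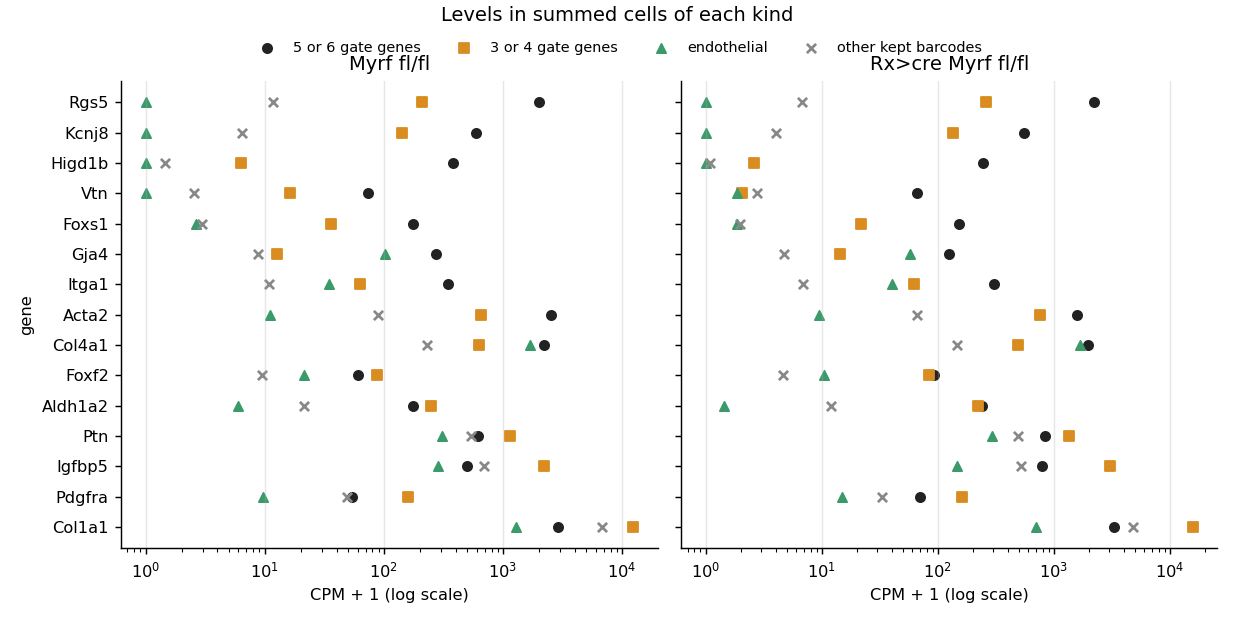
Level of 15 genes in summed cells, as CPM + 1 on a log axis, for Myrf fl/fl (left) and Rx>cre Myrf fl/fl (right). Symbols mark cells with 5 or 6 gate genes, cells with 3 or 4, endothelial cells and other kept barcodes, 1 library per panel. Higd1b, Vtn and Gja4 separate the ranges of the gate, and Col1a1 and Igfbp5 run the other way. Rgs5 and Kcnj8 are 0 in endothelial cells by construction of that gate.

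Between genotypes, few genes differed by much in gated cells. Of 9650 genes compared, 50 (0.518%) were at least 2-fold higher in the mutant and 64 (0.663%) at least 2-fold lower. The log2 ratio was below 0 for 47.5% of genes and above 0 for 52.5%, with a median of 0.02. The counting interval lay below 0 for 678 of the 9650, above 0 for 763 and included 0 for 8209. These shares are the background for the lists that follow.

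Of the 21 pericyte genes, 17 stood lower in the mutant and 4 higher, with a median log2 ratio of -0.13, and none was past 2-fold. The counting interval lay below 0 for 7, above 0 for 2 and included 0 for 12, against 678, 763 and 8209 of all 9650 genes compared. In other kept barcodes 17 of the 21 stood lower too, with a median of -0.43, and in the fibroblast gate 10 did, with a median of 0.20. That direction did not hold within cells of like sex-linked transcripts, where the median was 0.11 among Xist cells and 0.061 among cells with Y-linked UMIs, nor with at most 5% mitochondrial UMIs, where it was 0.008. Gja4, the gap junction protein connexin 37, was at 97.6 and 53.4 CPM in control and mutant cells, with a log2 ratio of -0.86 (-1.15 to -0.60). The Gja4 difference lay in cells with 5 or 6 gate genes, at 272 and 124 CPM (log2 -1.12), and was not seen with 3 or 4 (11.7 and 13.3 CPM). Gja4 was also lower in mutant endothelial cells, at 100 and 56.9 CPM, and in other kept barcodes (log2 -0.87). In the fibroblast gate it was higher in the mutant (log2 0.46, 0.05 to 1.02). The receptor gene P2ry14 was at 84.0 and 49.7 CPM (log2 -0.75), the scavenger receptor gene Colec12 at 134 and 84.9 CPM (log2 -0.66), and Higd1b at 130 and 88.3 CPM (log2 -0.55). Higd1b rested on 17.5% and 15.7% of gated cells (6.99% and 8.82% after thinning), and its log2 ratio was 0.01 with at most 5% mitochondrial UMIs and 1.91 among Xist cells. P2ry14 was at 0.07 among cells with Y-linked UMIs. Ndufa4l2, a mitochondrial protein gene of hypoxic and mural cells, was even at 477 and 471 CPM. Aspn (asporin) was at 277 and 287 CPM over all gated cells, but lower in the mutant with 5 or 6 gate genes (log2 -0.32) and higher with 3 or 4 (log2 0.30). Higher in the mutant were Steap4, a metalloreductase gene, at 14.6 and 23.3 CPM (log2 0.64, 0.14 to 1.21; 0.73 with 5 or 6 gate genes and -0.08 with 3 or 4), and Ptn (pleiotrophin, a growth factor) at 967 and 1159 CPM (log2 0.26). In the cells with 5 or 6 gate genes, 16 of the 21 stood lower and the median was -0.23.

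Genes of the contractile apparatus ranged from widespread to rare among gated cells. A UMI of Myl9, the regulatory myosin light chain, was found in 90.8% of control and 93.4% of mutant gated cells, one of Acta2 in 53.4% and 57.4%, and one of Tagln in 48.6% and 55.4%, whereas Actg2 was found in 11.6% and 10.7% and Cnn1 in 4.79% and 3.31%. After thinning, the shares were 58.4% and 57.6% for Myl9, 36.4% and 36.6% for Acta2 and 26.6% and 35.7% for Tagln. Thinned shares in other kept barcodes were 5.38% and 3.43% for Myl9, 3.42% and 2.36% for Acta2 and 2.55% and 1.81% for Tagln. In the fibroblast gate they were 13.34% and 22.65%, 5.6% and 7.8%, and 6.69% and 13.5%. Of 18 compared, 11 were at least 4-fold above other kept cells in both libraries, against 2.03% of all genes compared, and 9 were at least 2-fold higher with 5 or 6 than with 3 or 4 gate genes, against 3.27%. Smooth muscle actin, Acta2, was at 1266 CPM (control) and 1047 CPM (mutant) over all gated cells, and at 2505 and 1570 CPM with 5 or 6 gate genes (log2 -0.67). With 3 or 4 gate genes Acta2 was at 655 and 750 CPM, the opposite order, and the log2 ratio over all gated cells turned from -0.27 to 0.07 without the cells that held a Myh11 UMI. Tagln, which encodes the actin-binding protein SM22, was at 726 and 770 CPM, Myl9 at 723 and 711 CPM, and desmin, Des, at 93.3 and 114 CPM (log2 0.29, 0.07 to 0.51). Tagln and Myl9 were thus close to even over all gated cells, but opposite differences in the ranges lay beneath. Tagln was at 1369 and 1187 CPM with 5 or 6 gate genes (log2 -0.21, -0.31 to -0.10) and at 409.0 and 534 CPM with 3 or 4 (log2 0.38, 0.26 to 0.51). Myl9 was at 1290 and 1061 CPM with 5 or 6 (log2 -0.28, -0.39 to -0.17) and at 444 and 512 CPM with 3 or 4 (log2 0.20, 0.08 to 0.33). Acta2, Tagln and Myl9 therefore all stood lower in the mutant where 5 or 6 gate genes were present and higher where 3 or 4 were. They were higher in the mutant in the fibroblast gate as well (log2 0.40, 0.72 and 0.51) and lower in other kept barcodes (log2 -0.42, -0.37 and -0.52). The fibroblast gate was itself unlike between the libraries in depth and marker level, as given above. The Des ratio was 0.39 with 5 or 6 gate genes and -0.27 with 3 or 4.

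Myh11, the smooth muscle myosin heavy chain, was lower in the mutant with 5 or 6 gate genes (log2 -1.27). With 3 or 4 the log2 ratio was -2.12 (116 and 19 UMIs), but 1 cell held 88 of those control UMIs. Over all gated cells Myh11 had 260 UMIs in control and 71 in mutant gated cells, 70.5 and 24.0 CPM, a log2 ratio of -1.52 (-1.95 to -1.17). At full depth 29 of 292 cells carried it in the control (9.93%, 6.75 to 13.95) and 22 of 242 in the mutant (9.09%, 5.79 to 13.4). After thinning 16 of 286 (5.59%, 3.23 to 8.93) and 6 of 238 (2.52%, 0.931 to 5.41) did, and the intervals overlap. The control had 11 cells with at least 5 Myh11 UMIs and the mutant 4, and the richest cells held 88 and 15 UMIs. That single control cell, which had 3 or 4 gate genes, held 33.9% of the control UMIs. With the richest cell left out of each library, a setting added after the data were seen, Myh11 was at 46.6 and 18.9 CPM, a log2 ratio of -1.26 (-1.76 to -0.86).

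Some other contractile genes of low level, though not all, stood in the same order as Myh11. Calponin, Cnn1, was at 14.1 and 4.73 CPM (52 and 14 UMIs), but 46.2% of the control UMIs came from 1 cell. Pcp4l1 was at 12.7 and 4.73 CPM, the actin-binding synaptopodin-2 gene Synpo2 at 12.2 and 6.09 CPM, and leiomodin, Lmod1, at 20.3 and 13.5 CPM. Myocd, the coactivator that turns on contractile genes, had 25 and 7 UMIs and fell under the limit for comparison. Its DNA-binding partner Srf was even, at 21.1 and 21.98 CPM. In all, 12 of the 18 stood lower in the mutant and 4 (Myh11, Cnn1, Pcp4l1 and Synpo2) were at least 2-fold lower, against 0.663% of all genes compared. The median was -0.16 over all gated cells, -0.27 with 5 or 6 gate genes and -0.22 with 3 or 4, while it was -0.38 in other kept barcodes (17 of 18 lower) and 0.24 in the fibroblast gate (4 of 18 lower). The median of gated cells turned to 0.25 among cells with Y-linked UMIs, to 0.078 without cells that held a Myh11 UMI and to 0.061 without cells that held at least 3 markers of another type other than fibroblast.

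**Figure D3:**
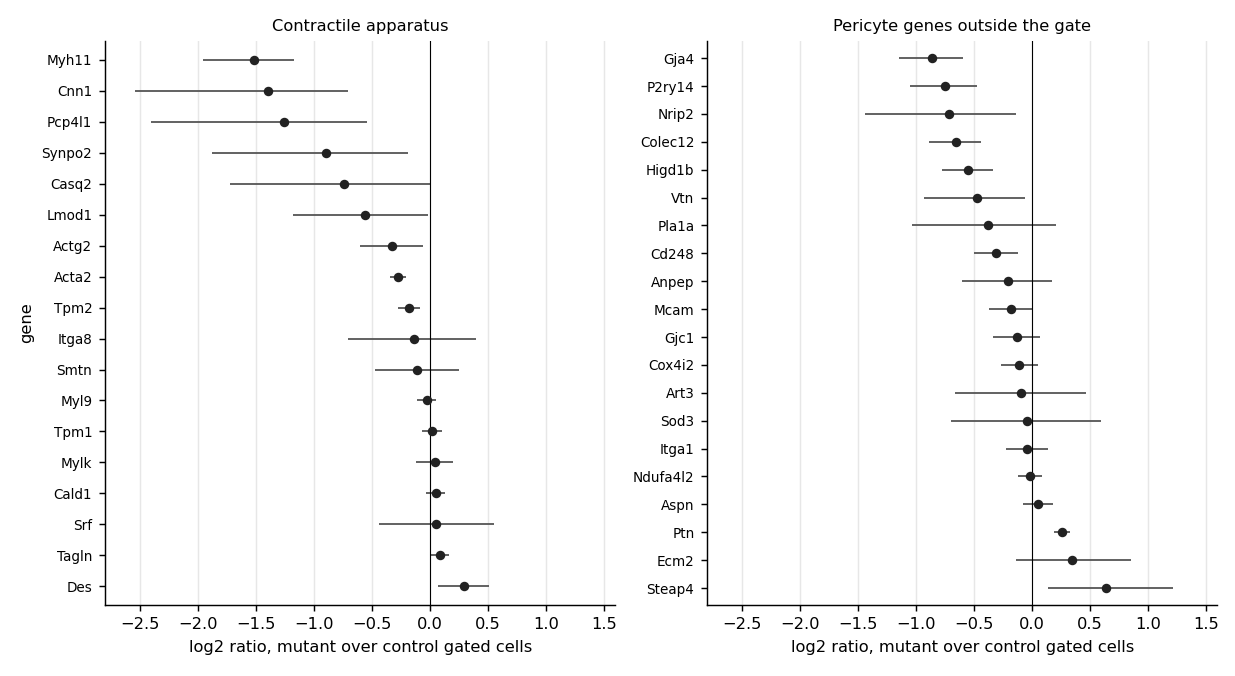
Log2 ratio of mutant over control gated cells for the contractile genes (left) and 20 of the 21 compared pericyte genes outside the gate (right), on CPM + 1 of summed cells. Points are 1 library against 1 library and lines are 95% intervals of counting error of the plain ratio. Myh11 sits at -1.52 and Gja4 at -0.86, while Tagln, Myl9 and Ndufa4l2 lie near 0 over all gated cells.

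SRF binds the CArG box, a motif that drives both contractile and immediate early genes, which is why the promoters of those lists were read. The 250 bases upstream of the start of each gene were taken from RefSeq on GRCm38.p6 and searched for the CArG box, which reads alike on both strands. Only the exact pattern CCWWWWWWGG was accepted, where W is A or T. Boxes that depart from it or lie further from the start were not searched for. The pattern was found in 1.62% of 27025 promoters and in 2 of the 16 genes of the contractile list with a promoter. These were Myl9 and Srf, the latter the gene of the binding factor itself. It was found in 1 of 12 immediate early or heat shock genes (Zfp36), and in 0 of 5 gate genes and 0 of 14 pericyte genes. The matches are shown in capitals, 5′ to 3′ on the strand of the gene, and describe letters, not binding. Myl9 (chr2:156775214-156775463, plus strand), Zfp36 (chr7:28379229-28379478, minus strand) and Srf (chr17:46556163-46556412, minus strand) read as follows.
Myl9: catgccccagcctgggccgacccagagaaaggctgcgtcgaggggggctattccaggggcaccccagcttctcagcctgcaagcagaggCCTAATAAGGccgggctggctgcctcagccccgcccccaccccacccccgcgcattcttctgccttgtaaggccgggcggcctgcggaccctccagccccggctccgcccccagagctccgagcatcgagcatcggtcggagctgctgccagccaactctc
Zfp36: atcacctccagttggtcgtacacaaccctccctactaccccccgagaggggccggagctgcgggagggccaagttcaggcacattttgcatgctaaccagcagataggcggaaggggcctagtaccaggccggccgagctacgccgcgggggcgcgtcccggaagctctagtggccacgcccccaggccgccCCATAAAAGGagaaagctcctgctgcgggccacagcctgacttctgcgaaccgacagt
Srf: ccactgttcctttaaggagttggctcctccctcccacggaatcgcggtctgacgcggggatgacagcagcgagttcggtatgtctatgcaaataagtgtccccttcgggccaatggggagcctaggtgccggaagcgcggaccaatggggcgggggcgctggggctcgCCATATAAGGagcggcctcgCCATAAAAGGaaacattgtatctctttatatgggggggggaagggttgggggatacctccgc
No match was found for Cnn1 or Synpo2 within this window, and Myh11 was not in the promoter table used. Srf stood even between the genotypes, Myl9 did so only over all gated cells, and Zfp36 stood lower in the mutant, as given below.

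Signalling genes of vascular tone were present and mostly even. Ednra, the endothelin receptor of mural cells, was at 86.5 and 88.3 CPM, and the guanylate cyclase subunit genes Gucy1a1 and Gucy1b1 were at 213 and 211 CPM and at 81.6 and 76.4 CPM. Rgs4, a relative of Rgs5, was at 13.0 and 26.04 CPM, a log2 ratio of 0.95 (0.46 to 1.55), and was the only 1 of 16 genes in this list at least 2-fold apart. The Rgs4 difference lay in cells with 5 or 6 gate genes, at 32.0 and 66.4 CPM, and was not seen with 3 or 4 (3.64 and 3.18 CPM). The angiotensin receptor gene Agtr1a was at 27.9 and 40.6 CPM (log2 0.52, 0.15 to 0.93). Of the 16, 12 stood higher in the mutant, with a median of 0.10, and within either range 9 did.

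Pdgfb, the ligand gene of the receptor used in the gate, was mainly in endothelial cells. Pdgfb was at 214 and 202 CPM in endothelial cells and at 3.52 and 5.07 CPM in gated cells, where its 13 and 15 UMIs were too few to compare. The ligand gene Pdgfa was at 55.6 and 46.0 CPM in gated cells. The receptor-like gene Pdgfrl was at 137 and 206 CPM (log2 0.59, 0.42 to 0.76) and Pdgfc at 11.1 and 21.0 CPM (log2 0.86, 0.32 to 1.52). Both were lower in mutant endothelial cells, with log2 ratios of -0.85 and -0.36, and both were mainly in cells with 3 or 4 gate genes, at 189 and 300 CPM for Pdgfrl.

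In the Notch pathway, 6 of 9 genes stood lower in the mutant and none was past 2-fold. The median was -0.18 but turned to 0.36 among Xist cells. The ligand gene Jag1 was at 91.9 and 97.1 CPM in gated cells. The endothelial ligand gene Dll4 was at 51.2 and 39.5 CPM in endothelial cells. Among targets of the pathway, Heyl was at 101 and 76.1 CPM (log2 -0.40, -0.65 to -0.16), Hes1 at 723 and 612 CPM (log2 -0.24) and Nrarp at 46.4 and 38.9 CPM (log2 -0.25). Notch3 itself was even, as given above.

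In the TGF-beta and BMP list, 13 of 25 genes stood higher and 12 lower, with a median of 0.05. The BMP-induced Id1 was at 292 and 224 CPM (log2 -0.38) and Id3 at 1713 and 1428 CPM (log2 -0.26). The Id1 difference lay with 3 or 4 gate genes, at 301 and 185 CPM, and was not seen with 5 or 6 (274 and 293 CPM). The ligand genes Tgfb2 (62.1 and 83.9 CPM) and Tgfb3 (53.4 and 68.7 CPM) were higher in the mutant over all gated cells and with 3 or 4 gate genes (log2 1.01 and 0.55), but their log2 ratios were -0.43 and -0.30 with 5 or 6. Endoglin, Eng, was even at 110 and 108 CPM.

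Angiopoietins were somewhat higher in the mutant. Angpt1, the mural ligand of the endothelial receptor TIE2, was at 62.9 and 85.2 CPM (log2 0.43, 0.18 to 0.70). Its antagonist Angpt2 was at 12.7 and 20.6 CPM (log2 0.65, 0.12 to 1.28), with 27.1 and 48.6 CPM where 5 or 6 gate genes were present and 5.66 and 4.77 CPM where 3 or 4 were. Vegfa was even at 39.6 and 37.5 CPM. Over this list of 14 genes, 6 stood higher and 8 lower, with a median of -0.04. With 5 or 6 gate genes 5 stood higher (median -0.21), with 3 or 4 gate genes 11 did (0.14), and among Xist cells the median was 0.49.

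Transcription factors of ocular mesenchyme were held in both libraries. Foxc1 was at 182 and 185 CPM, Foxf2, which is needed for brain pericytes, at 78.1 and 85.6 CPM, Tbx18 at 48.0 and 52.8 CPM, and Ebf1 at 472 and 459 CPM. Foxc1, Foxc2, Foxf2, Foxs1, Tbx18, Ebf1 and Tcf21 were among the 8 of 30 at least 4-fold above other kept cells in both libraries, against 2.03% of all genes compared. Foxs1 and Ebf1 leaned to cells with 5 or 6 gate genes, whereas Foxc1, Foxf2 and Tbx18 were less than 2-fold apart between the ranges. Foxc1, Foxf2 and Tbx18 were higher in the mutant with 5 or 6 gate genes (log2 0.46, 0.59 and 0.68) and not with 3 or 4 (log2 -0.23, -0.07 and -0.25).

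Differences between genotypes among transcription factors were in both directions. Tcf21, a factor of mesenchyme and fibroblasts, was at 18.4 and 33.1 CPM (log2 0.81, 0.39 to 1.31). Epas1, which encodes HIF-2 alpha, was at 106 and 143 CPM (log2 0.44, 0.24 to 0.64), and Meis2 at 12.7 and 23.3 CPM. Meis2 was at 9.03 and 46.7 CPM with 5 or 6 gate genes and at 14.6 and 10.1 CPM with 3 or 4. Zic1, a forebrain and meningeal factor, was at 14.9 and 7.101 CPM (log2 -0.97, -1.87 to -0.32) and was the only member at least 2-fold apart, but its log2 ratio was 1.99 among Xist cells. Tbx2 was at 78.3 and 57.2 CPM (log2 -0.45) and Nfatc4 at 55.3 and 39.2 CPM (log2 -0.48). Of the 30, 19 stood higher in the mutant, with a median of 0.12 that turned to -0.14 among cells with Y-linked UMIs.

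Of 25 basement membrane and matrix genes compared, 5 were at least 4-fold above other kept cells in both libraries, against 2.03% of all genes compared. The list summed to 36377 and 39569 CPM in gated cells. Its sums were 11506 and 9198 CPM in endothelial cells and 50165 and 80280 CPM in the fibroblast gate. Col4a1 was at 1147 and 1024 CPM in gated and at 1677 and 1658 CPM in endothelial cells, and with 5 or 6 gate genes it reached 2208 and 1975 CPM. Col4a2, which pairs with it, was at 722 and 672 CPM, and nidogen, Nid1, at 301 and 254 CPM (log2 -0.24). Fibrillar collagen differed the other way, with Col1a1 at 9235 and 11257 CPM (log2 0.29) and Col1a2 at 7196 and 8825 CPM (log2 0.29). The fibroblast markers together stood at 11927 and 13790 CPM in gated cells. Col1a1 is itself among these markers and made up most of their sum. The sum is therefore not a separate measure of fibroblast transcripts, whose part in the collagen difference was not tested. The matrix proteins Sparc (4482 and 4566 CPM) and Mgp (3199 and 3198 CPM) were even over all gated cells, and their log2 ratios were -0.15 and 0.06 with 5 or 6 gate genes and 0.11 and -0.10 with 3 or 4. None of the 25 matrix genes was past 2-fold, and the median was -0.05.

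The IGF list held 1 gene past 2-fold. Igfbp6, which binds IGF-2, was at 216 and 88.9 CPM, a log2 ratio of -1.27 (-1.48 to -1.07). It was lower in the mutant in endothelial cells too, at 39.7 and 12.7 CPM, and in all other kept barcodes, at 144 and 63.9 CPM. In the fibroblast gate Igfbp6 was close to even, at 373 and 363 CPM (log2 -0.04, -0.10 to 0.02). Cells of that gate were deeper in the mutant and had higher levels of the markers that chose them. That gate also made up a smaller share of the mutant barcodes, a difference whose part in the other kept barcodes was not tested. Igfbp5 was at 1630 and 2240 CPM (log2 0.46, 0.41 to 0.51) in gated cells and at 285 and 146 CPM, the opposite order, in endothelial cells. Igfbp5 was mainly in cells with 3 or 4 gate genes, at 2186 and 3061 CPM, and at 501 and 790 CPM with 5 or 6. Igfbp7, an abundant vascular gene, was even at 1741 and 1714 CPM. Igf2 was at 146 and 178 CPM and its imprinted neighbour H19 at 1869 and 2157 CPM.

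In the WNT list, 13 of 14 genes stood higher in the mutant, with a median of 0.15 and none past 2-fold. The interval lay above 0 for 4 and included 0 for 10, against 763 and 8209 of all 9650 genes compared. The median turned to -0.076 among cells with Y-linked UMIs. The ligand gene Wnt5a was at 38.5 and 67.3 CPM (log2 0.79, 0.49 to 1.13) and the nuclear factor gene Tcf7l2 at 49.3 and 71.7 CPM (log2 0.53). Norrin, Ndp, had 11 and 12 UMIs. In matrix remodelling, 8 of 14 stood higher, with a median of 0.09, and Timp3, an inhibitor of matrix proteases, was at 403 and 530 CPM. With 5 or 6 gate genes 5 of the 14 remodelling genes stood higher with a median of -0.18, and with 3 or 4 gate genes 9 did with a median of 0.13. Timp3 was even with 5 or 6 gate genes, at 490 and 484 CPM. In glycolysis and hypoxia, 11 of 13 stood higher with a median of 0.12. With 5 or 6 gate genes 5 of 13 did with a median of -0.087, and with 3 or 4 gate genes 11 of 13 (median 0.21). Outside the gate, 13 of 13 stood higher in other kept barcodes (median 0.50) and 10 in endothelial cells (0.36). In the fibroblast gate 5 did (-0.13). The glucose transporter gene Slc2a1 was at 30.1 and 46.3 CPM. In the interferon response, 4 of 8 stood higher, with a median of 0.00.

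A smaller share of gated cells than of other kept barcodes held UMIs of cycling genes. After every cell was thinned to 2000 UMIs, 15.4% of 286 control gated cells (11.4 to 20.1) and 20.2% of 238 mutant gated cells (15.3 to 25.8) held at least 2 UMIs of the 14 S phase genes, and the intervals overlap. The shares in other kept barcodes were 39.4% and 47.0%. For the 15 genes of G2 and mitosis the shares were 15.4% and 17.6% in gated cells and 36.9% and 39.6% in other kept barcodes. Cells of the fibroblast gate, of which 31.6% and 20.4% also held at least 3 retinal progenitor markers, had S phase shares of 28.4% and 18.4% and G2 and mitosis shares of 29.2% and 16.6%, so that those of the mutant were close to mutant gated cells. Of the S phase genes, 12 of 14 stood higher in the mutant with a median of 0.31 (0.083 with 5 or 6 gate genes and 0.47 with 3 or 4), and in endothelial cells 13 of 14 with a median of 0.55. In other kept barcodes 14 of 14 stood higher (median 0.36), whereas in the fibroblast gate 2 of 14 did (median -0.28). The S phase median of gated cells turned to -0.86 without cells that held at least 3 markers of another type, which left 48 control and 49 mutant cells. Rrm2, a subunit of ribonucleotide reductase, was at 21.7 and 37.9 CPM, while Tyms, thymidylate synthase, was at 58.8 and 40.2 CPM, the opposite order.

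Immediate early and heat shock genes were the only list of the 18 whose compared members all stood on the same side. All 15 log2 ratios were below 0, against 47.5% of all genes compared. They ran from -1.04 to -0.01, with a median of -0.35. The counting interval lay below 0 for 12, against 678 of all 9650 genes compared, and included 0 for 3 (Fosb, Ier3 and Hsp90aa1). Over 16 other settings, which included Xist cells alone and cells with Y-linked UMIs alone, the median ran from -0.47 to -0.26. Junb was at 526 and 368 CPM (log2 -0.51, -0.62 to -0.41), Jun at 362 and 256 CPM (log2 -0.50), Fos at 482 and 399 CPM (log2 -0.27), and the phosphatase gene Dusp1 at 231 and 175 CPM (log2 -0.40; 0.07 with 5 or 6 gate genes and -0.78 with 3 or 4). The mRNA decay factor gene Zfp36 was at 145 and 104 CPM (log2 -0.48) and the stress factor gene Atf3 at 17.1 and 7.78 CPM (log2 -1.04), which alone passed 2-fold. The heat shock genes Hspa1a and Hspa1b were at 168 and 131 CPM and at 187 and 123 CPM, whereas Hsp90aa1 was even at 402 and 399 CPM.

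Other cells of the same libraries were mixed. In other kept barcodes 9 of the 15 stood lower in the mutant with a median of -0.13, and in the fibroblast gate 4 did with a median of 0.04. In endothelial cells, 10 of the 15 stood higher and 5 lower in the mutant, with a median of 0.08, and the sum of the list was 3498 and 3520 CPM, against 4179 and 3416 CPM in gated cells. Junb in endothelial cells was at 385 and 380 CPM. Hspa1a and Hspa1b were lower in mutant endothelial cells as well, with log2 ratios of -1.01 and -0.78. After thinning to equal depth, gated cells held a mean of 8.41 (control) and 6.78 (mutant) UMIs of the list per cell, and endothelial cells 6.45 and 6.57. The difference was present in both ranges of the gate, at 7.70 and 6.41 UMIs with 5 or 6 gate genes and at 8.81 and 7.19 with 3 or 4. These genes are also known to respond to tissue dissociation. The methods describe the papain digestion without saying how each pool was handled, and the part of dissociation in the difference was not tested.

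**Figure D4:**
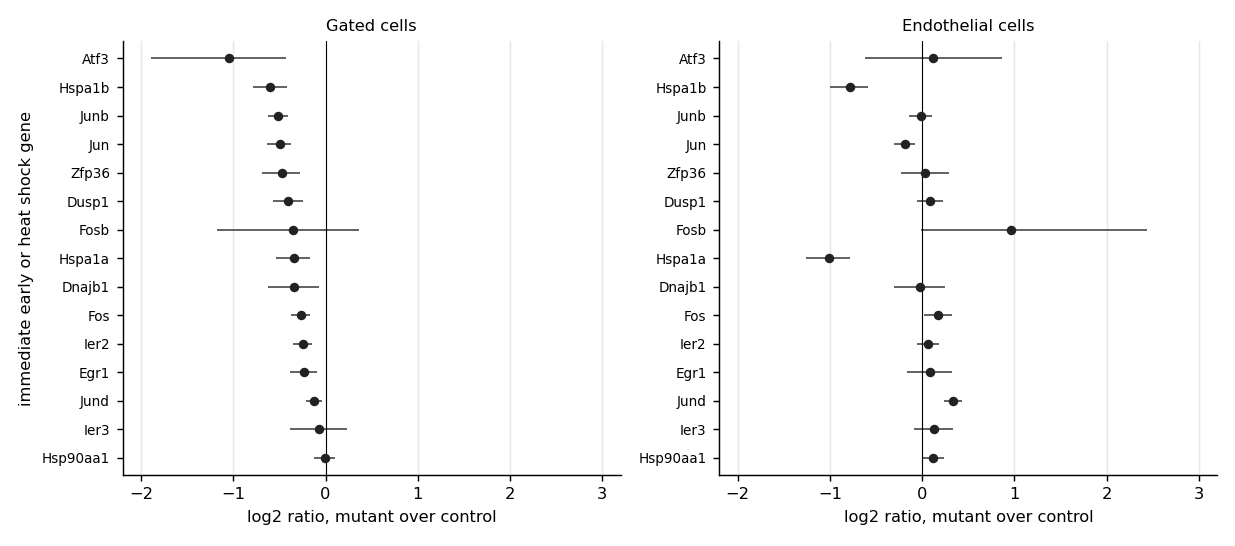
Log2 ratio of mutant over control for 15 immediate early and heat shock genes in gated cells (left) and endothelial cells (right), on CPM + 1 of summed cells. Points are 1 library against 1 library and lines are 95% intervals of counting error of the plain ratio. All 15 points lie below 0 in gated cells, and 5 of 15 do so in endothelial cells.

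Among single genes with the largest differences, several rested on few cells. The heme oxygenase gene Hmox1 was at 18.2 and 91.3 CPM, but 68.9% of the mutant UMIs came from 1 cell, and with the richest cell left out of each library it was at 17.1 and 28.4 CPM (log2 0.70). S100a4, a calcium-binding protein gene of fibroblasts and white blood cells, was at 17.6 and 57.2 CPM, with 34.9% of the mutant UMIs in 1 cell, its reads could be shared with an overlapping gene model, and the ratio turned to -0.08 without the top doublet scores. In contrast, Penk, which encodes preproenkephalin, was spread over 25.7% of control and 41.7% of mutant gated cells, at 67.5 and 157 CPM, a log2 ratio of 1.21 (1.00 to 1.45). After thinning, 6.29% and 15.5% of gated cells held a Penk UMI, against 3.01% and 3.16% of other kept barcodes. In cells of the fibroblast gate 5.73% and 14.6% did so, and Penk stood there at 68.7 and 163 CPM (log2 1.23, 1.13 to 1.36), so the difference was not one of gated cells alone. Without cells that held at least 3 markers of another type, which left 48 control and 49 mutant cells, the Penk ratio was -0.55. The growth factor gene Clec11a was at 38.5 and 93.0 CPM (log2 1.25, 0.98 to 1.58), in 18.5% and 27.7% of gated cells. After thinning, 5.59% and 11.8% of gated cells held a Clec11a UMI, and 6.16% and 11.0% of cells of the fibroblast gate. Clec11a was higher in the mutant in the fibroblast gate as well (log2 0.44, 0.30 to 0.60) and lower in other kept barcodes (log2 -0.22).

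Several genes higher in the mutant stood highest in the range with 3 or 4 gate genes. Clec11a was at 53.4 and 138 CPM with 3 or 4 gate genes and at 8.21 and 14.02 CPM with 5 or 6. Penk was at 90.2 and 203 CPM with 3 or 4 and at 21.4 and 76.7 CPM with 5 or 6. The gene 1500015O10Rik was at 236 and 513 CPM over all gated cells, at 329 and 781 CPM with 3 or 4 gate genes and at 45.2 and 41.1 CPM with 5 or 6, where the difference was not seen. The other 7 of the 12 highest ratios were P4ha3, Chodl, Tspan8, Hddc3, Tekt2, Zfp383 and Ubash3b, with log2 ratios from 1.20 to 1.43 and at most 94 UMIs in either library.

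Genes with the lowest ratios also rested on few UMIs in part. The eotaxin gene Ccl11 had 53 control UMIs and 5 mutant UMIs, 14.4 and 1.69 CPM, a log2 ratio of -2.51 (-4.77 to -1.77), with 30.2% of the control UMIs in 1 cell. Ccl11 was lower in the mutant in the fibroblast gate (log2 -0.67) and in other kept barcodes (log2 -0.63) too. The chemokine gene Cxcl1 had 47 and 11 UMIs, and its ratio turned to 2.14 without cells that held at least 3 markers of another type and to 0.047 with the gate applied after thinning. Plac8 was at 89.2 and 34.2 CPM, a log2 ratio of -1.36 (-1.72 to -1.06), in 28.4% and 18.2% of gated cells. Plac8 was lower in both ranges of the gate, at 112 and 43.9 CPM with 5 or 6 gate genes and at 77.7 and 28.6 CPM with 3 or 4. Outside the gate it was lower in the mutant too, in other kept barcodes (log2 -0.72) and in the fibroblast gate (log2 -0.40). The interferon-induced Ifit1 was at 17.9 and 5.41 CPM, with 43.9% of the control UMIs in 1 cell. Myh11, Rpl39l, Mpp2, Cnn1, Pi15, Daglb and Gm14295 were also among the 12 lowest ratios.

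**Figure D5:**
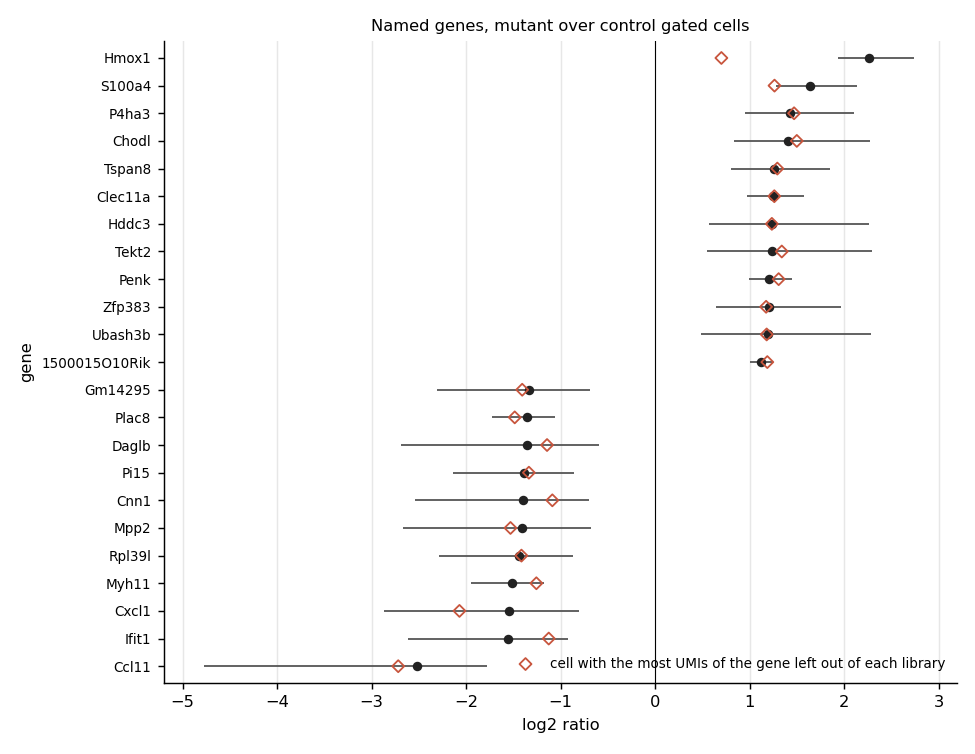
Log2 ratio of mutant over control gated cells for the 12 highest and 11 of the 12 lowest genes by the naming rule, on CPM + 1. Black points are the sums of all gated cells with 95% lines of counting error of the plain ratio, and open red diamonds leave out the cell with the most UMIs of that gene from each library. Hmox1 moves from 2.27 to 0.70 and Myh11 from -1.52 to -1.26.

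Sex-linked genes showed the difference between the pools within gated cells too. Xist was at 446 and 779 CPM in control and mutant cells, and the Y-linked genes Ddx3y and Eif2s3y were at 47.4 and 23.0 CPM and at 43.4 and 16.2 CPM. Uty, also Y-linked, was at 10.6 and 9.13 CPM (log2 -0.19, counting interval including 0). Gm47283, placed at 90784738 to 90816464 of the Y chromosome, was at 292 and 236 CPM (log2 -0.30). It was not among the genes used for the sex calls and is not read here as a measure of sex. Xist cells without a Y-linked UMI made up 32.9% of gated control cells and 61.2% of gated mutant cells.

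Going from 5 or 6 to 3 or 4 gate genes, genes at least 2-fold lower in the former range in both libraries were 3.4% of all compared. They included the fibrillar matrix genes Col1a1, Col1a2, Col3a1 and Eln, the remodelling genes Mmp2, Lox, Loxl1 and Postn, the IGF-binding proteins Igfbp3, Igfbp5 and Igfbp6, and Pdgfra, Pdgfrl and Pdgfc. None of the pericyte or contractile genes compared was among them.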

How the data were processed

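Droplet libraries (10x Genomics 3′) of newborn eye cups were analysed, 1 library per genotype. The authors aligned reads to mm10 (GRCm38) with Cell Ranger 7.1.0 per their methods, while the matrix headers name software 3.1.0, and used Seurat 4.1.1. What was deposited is a matrix of raw counts of UMIs by gene and barcode, not normalized. The annotation used for counting is not given in the sources used here. Gene positions came from GENCODE M21.

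Barcodes with at least 200 genes and at most 15% mitochondrial UMIs were kept. UMIs of gated cells were summed per library and scaled to CPM. The log2 ratio of mutant over control was taken with 1 CPM added to each side. For its 95% interval the plain ratio was used, by the exact conditional Poisson method, and for shares the exact Clopper-Pearson method. Genes with at least 50 UMIs over both sums were compared, and 2-fold limits refer to the plain ratio of CPM. UMIs are not independent of the cell they came from, so intervals cover counting error only. No p-value is given. Shares of cells with a UMI are over all gated cells at full depth, except where thinning to 2000 UMIs is named (286 and 238 gated cells deep enough).

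Named genes were the gate and listed genes described by role, the 20 outside the gate with the largest fold over other kept cells in the library where it was smaller (at least 50 UMIs in each), and the 12 highest and 12 lowest ratios. For these last, the counting interval had to lie apart from 0 and the gated level had to reach that of the other kept cells, with sex-linked genes apart. A few genes that these rules name are not reported here. Members, lists and rules were chosen with earlier results of these data known.

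Scrublet in scanpy 1.11.5 marked 0% of control and 5.46% of mutant barcodes at its own threshold, so it had not worked in the control, and no doublets were removed in the values reported. Barcodes with the top scores at the rate expected from the number of barcodes (1617 and 1176, of which 48 and 45 were gated) were left out as an alternative. The study's upper limit of 2000 UMIs lay below 80.2% of control and 92.1% of mutant barcodes and was used only as an alternative. Other alternatives changed the gate, depth, mitochondrial limit, mixed cells, sex-linked split, weighting, pseudocount and count filter. The fibroblast gate took 2600 control and 711 mutant cells, of which 1778 and 566 held fewer than 3 retinal progenitor markers. Its median depth was 4866 and 11444 UMIs, so its values stand only beside those of gated cells. The ratios and intervals were also run on simulated sums drawn as independent Poisson counts. Those sums held no cells, so that run cannot show how intervals behave where a single cell holds many UMIs. Computations used Python 3.11.15, numpy 2.4.6, scipy 1.17.1 and pandas 2.3.3. Other ages of the study were not analysed here.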

Additional observations from a re-analysis of the deposited data

Results flagged for a closer look

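A few genes had opposite differences between genotypes in gated and in endothelial cells, and the difference between the cell types was not tested. Penk was higher in mutant gated cells and lower in mutant endothelial cells, with a log2 ratio there of -2.45 (32.4 and 5.09 CPM). The endothelial sums held 119 and 12 Penk UMIs, but after thinning 1.39% (control) and 1.49% (mutant) of endothelial cells held a Penk UMI. In cells of the fibroblast gate Penk was higher in the mutant as well, at 68.7 and 163 CPM (log2 1.23). The gene 1500015O10Rik was likewise higher in mutant gated cells and lower in mutant endothelial cells, with a log2 ratio there of -0.69, and it too was higher in mutant cells of the fibroblast gate (log2 0.44). Ifit1 was lower in mutant gated cells and higher in mutant endothelial cells, with a log2 ratio of 0.96 on 19 and 26 UMIs. After thinning, 0.833% and 0.498% of endothelial cells held an Ifit1 UMI, and 1.94% and 1.99% held one of 1500015O10Rik (83 and 32 UMIs). For none of these genes did the share of endothelial cells move with the level.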

How the results depend on the processing

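With 1 library per genotype no setting has a replicate check, and no paired analysis was possible. The log2 ratio of the gated share was 1.15 with an upper limit of 2000 UMIs (6 and 4 gated cells), 0.26 without mixed cells (at least 3 markers of another type), -2.40 among Xist cells and 0.63 among cells with Y-linked UMIs. Per endothelial cell it was 1.06 with the gate applied after thinning, 1.36 among cells with Y-linked UMIs, and reversed to -0.55 among Xist cells. The 50 genes at least 2-fold higher became 18 without mixed cells, 123 among Xist cells, 16 with thinned cells, 177 at a minimum of 20 UMIs and 7 at 200. The 64 at least 2-fold lower became 41 with at least 5 gate genes, 41 with the gate after thinning, 30 without mixed cells, 190 among cells with Y-linked UMIs, 19 with thinned cells, 162 at 20 UMIs and 12 at 200. The 196 genes at least 4-fold above other kept cells became 114 against fibroblasts, 453 against endothelial cells and 100 against fibroblasts with under 3 retinal progenitor markers. With the gate after thinning, log2 ratios reversed for P4ha3 (-0.57), Chodl (-0.80), Cxcl1 (0.047), Rpl39l (0.48), Cnn1 (0.050), Tagln (-0.13) and Rgs5 (-0.16). Without mixed cells they reversed for Penk (-0.55), 1500015O10Rik (-4.67), Cxcl1 (2.14) and Rpl39l (2.83). Among cells with Y-linked UMIs they reversed for S100a4 (-1.07), Chodl (-0.065), Tspan8 (-1.07), Tekt2 (-0.060), Acta2 (0.65) and P2ry14 (0.071), and among Xist cells for Tagln (-0.31), Higd1b (1.91) and Zic1 (1.99). With at least 5 gate genes 1500015O10Rik was at -0.13 and Tagln at -0.21, with at least 4 UMIs of the Rgs5 set Tagln was at -0.037, and with thinned cells Hddc3 was at -0.051 and Tagln at -0.031. S100a4 was at -0.082 without top doublet scores and Higd1b at 0.010 with the 5% mitochondrial limit. Acta2 was at 0.069 without Myh11 cells and at 0.10 without mixed cells other than fibroblast-marked. Medians of lists changed sign for the pericyte genes (0.11 among Xist cells, 0.061 among cells with Y-linked UMIs, 0.008 at 5% mitochondrial), contractile genes (0.25 among cells with Y-linked UMIs, 0.078 without Myh11 cells, 0.061 without mixed cells other than fibroblast-marked), S phase (-0.86 without mixed cells), G2 and mitosis (-0.43 among Xist cells), the Notch and VEGF lists (0.36 and 0.49 among Xist cells), the IGF, transcription factor, WNT and vascular tone lists (-0.13, -0.14, -0.076 and -0.085 among cells with Y-linked UMIs), matrix remodelling (-0.18 with at least 5 gate genes and among Xist cells) and glycolysis (-0.087 with at least 5 gate genes). The other lists that changed sign had medians within 0.06 of 0 to begin with, and the PDGF and immediate early lists kept their sign in all 16 alternatives. Causes were not tested. The gate of at least 5 genes, the fibroblast-tolerant mixed-cell filter, the stricter fibroblasts and leaving out the richest cell were chosen after seeing the data. Of the 24 highest and lowest genes, 11 kept their sign in all 16 alternatives run on the gated cells. Genes were not compared under the 2000 UMI limit, since too few cells were left.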
